A study of Mus musculus with 2 samples.

Results

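The genes described here are 7 targets of the transcription factor p53 that act in cell cycle arrest: Cdkn1a, Btg2, Ccng1, Gadd45a, Plk2, Rrm2b and Gtse1. They were chosen by gene symbol, and all 7 are among the 10617 distinct symbols of the deposited table. The cells were nephron progenitors of the mouse kidney at embryonic day 15.5, the Six2-expressing cells of the cap mesenchyme from which nephron epithelium forms, collected by flow sorting. Cells of the WT group were Six2CreGFP+;p53+/+ and cells of the KO group Six2CreGFP+;p53f/f, both on a mixed CD1 and C57BL background. Both groups thus carry the Six2 transgene for Cre recombinase and GFP, and in KO only cells that express this transgene can lose the floxed p53 gene, Trp53. There was 1 library per group, and how many embryos each library holds is not given in the sources used here. Setting KO against WT asks how the loss of p53 alters the messenger RNA of progenitors that must renew themselves.

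The p53 protein binds DNA at a pair of short half-sites and activates genes that halt the cell cycle, repair DNA or start cell death. The arrest genes act at different points. Cdkn1a encodes p21, which binds cyclin-dependent kinases (CDKs) and the replication clamp PCNA. Btg2 encodes an antiproliferative factor that works with the messenger RNA deadenylation machinery, and Ccng1 encodes cyclin G1, which recruits a phosphatase to the p53 inhibitor Mdm2. Gadd45a encodes a stress protein of the G2 checkpoint, and Plk2 a polo-like kinase that acts on centrioles and in the S phase checkpoint. Rrm2b encodes the p53-inducible small subunit of ribonucleotide reductase, which supplies deoxynucleotides for repair. Gtse1 encodes a microtubule-bound protein of the G2 phase that moves p53 out of the nucleus and so opposes it.

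Promoter windows, from 250 bases before to 50 after a start, were present for 6 of the 7 genes in the RefSeq table of GRCm38.p6. They were searched for a pair of p53 consensus half-sites, each 10 bases long with an intact C and G core and read on both strands because the half-site is its own reverse complement. A pair with a spacer of 0 to 13 bases and at most 1 mismatch in all was found in 0.627% of 32851 windows. The search rule was set after these sequences had been seen. The windows of Cdkn1a and Ccng1, both lower in KO, are shown because each holds such a pair before the start. Capitals mark the half-sites. The Cdkn1a stretch is chr17:29090729-29090978 on the plus strand and the Ccng1 stretch chr11:40755287-40755536 on the minus strand, each printed 5′ to 3′ up to the base before the start.
Cdkn1a: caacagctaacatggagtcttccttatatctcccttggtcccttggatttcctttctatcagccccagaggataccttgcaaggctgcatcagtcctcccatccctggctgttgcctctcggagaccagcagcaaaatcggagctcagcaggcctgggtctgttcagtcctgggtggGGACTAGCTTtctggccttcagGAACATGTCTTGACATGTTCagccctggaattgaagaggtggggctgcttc
Ccng1: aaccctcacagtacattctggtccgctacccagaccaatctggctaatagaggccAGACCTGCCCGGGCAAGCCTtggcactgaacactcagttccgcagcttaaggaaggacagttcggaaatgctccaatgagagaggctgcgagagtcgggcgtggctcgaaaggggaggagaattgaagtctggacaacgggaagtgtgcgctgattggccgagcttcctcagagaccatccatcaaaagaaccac
In Cdkn1a the adjoining half-sites lie at bases -51 to -32 from the start (chr17:29090928-29090947), with 1 mismatch. A further half-site lies 12 bases before them and pairs with the first of them with 0 mismatches. This start is at the first base of the deposited Cdkn1a gene, and the table's other Cdkn1a window, 2790 bases downstream, holds no pair. In Ccng1 the half-sites adjoin at bases -195 to -176 (chr11:40755462-40755481), with 1 mismatch.

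Gtse1 has 2 windows, whose starts lie 239 bases apart, and pairs were found at the downstream start only. They overlap each other, at bases -1 to 19 (chr15:85859945-85859964) and 10 to 30 (chr15:85859955-85859975), each with 1 mismatch. The spacer base is in lower case.
Gtse1, upstream pair: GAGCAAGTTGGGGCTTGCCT
Gtse1, downstream pair: GGGCTTGCCTcTGACTTGCCT
The Gadd45a window holds pairs with 2 mismatches, a looser match that 4.09% of windows contain, such as the one at bases -56 to -31 (chr6:67037438-67037463).
Gadd45a: GGACCTGGTTggctgaGGGCTAGCCC
The windows of Btg2 and Plk2 hold no pair under either rule but share the cyclic AMP response element TGACGTCA, found in 1.79% of windows on either strand. They are shown because Btg2 was lower and Plk2 higher in KO. The Btg2 stretch is chr1:134079156-134079405 on the minus strand, with the element at bases -166 to -159, and the Plk2 stretch is chr13:110394794-110395043 on the plus strand, with the element at bases -62 to -55. Capitals mark the element.
Btg2: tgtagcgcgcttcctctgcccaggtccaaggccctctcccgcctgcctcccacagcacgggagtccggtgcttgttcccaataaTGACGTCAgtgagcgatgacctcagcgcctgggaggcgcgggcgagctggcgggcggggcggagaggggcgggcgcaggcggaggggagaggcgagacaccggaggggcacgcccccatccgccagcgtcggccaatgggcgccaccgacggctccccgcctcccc
Plk2: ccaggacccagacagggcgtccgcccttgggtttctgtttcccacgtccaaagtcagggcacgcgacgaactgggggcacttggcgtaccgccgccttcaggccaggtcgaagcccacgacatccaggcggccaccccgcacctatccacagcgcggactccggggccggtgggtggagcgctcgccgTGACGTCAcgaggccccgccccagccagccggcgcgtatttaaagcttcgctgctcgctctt
A match describes these letters of the reference strain in this window, and binding of p53 was not measured.

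Values are the authors' read densities, which behave as RPKM (reads scaled to gene length and library depth). The values imply some 91200000 reads for the WT library and 85600000 for KO. Each difference is given as log2(KO + 1) minus log2(WT + 1), and each ratio of KO to WT with an exact (Clopper-Pearson) 95% interval that covers counting error only. With 1 library per group no difference has a replicate check. Trp53 was at 33.9 RPKM in WT against 5.38 in KO, a ratio of 0.158 (0.151 to 0.166), so the knocked-out gene went with the labels. The density is over the whole gene, and the source of the reads left in KO was not tested. Genes enter the table only where the authors' corrected p-value passed, and among them 63.9% were lower in KO, with a median difference of -0.11.

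Of the 7 arrest genes, 3 were at least 1.5-fold lower in the KO library, against 5.49% of listed genes. This size, 0.58 on the scale of the log2 difference, is a rule with no test. Cdkn1a (ENSMUSG00000023067, chromosome 17, 29090979 to 29100722, plus strand) was at 22.5 RPKM in WT against 12.7 in KO. The ratio was 0.566 (0.544 to 0.589), 43.4% less, on an estimated 7279 and 3869 reads. Its log2 difference of -0.77 was lower than that of all but 3.07% of listed genes. A putative gene model on the opposite strand, AC167363.2, overlaps Cdkn1a, and the strand used in counting is not given.

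Ccng1 (ENSMUSG00000020326, chromosome 11, 40748552 to 40755311, minus strand) was at 15.3 RPKM in WT against 8.79 in KO. The ratio was 0.575 (0.548 to 0.603), on an estimated 4896 and 2644 reads, and the log2 difference was -0.73. The intervals of the ratios of Ccng1 and Cdkn1a overlap.

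Btg2 (ENSMUSG00000020423, chromosome 1, 134075170 to 134079120, minus strand), the most abundant of the 7 in both libraries, was at 77.7 RPKM in WT against 49.97 in KO. The ratio was 0.643 (0.629 to 0.658), 35.7% less, on an estimated 19431 and 11738 reads. Its interval lies above those of Cdkn1a and Ccng1, so between these libraries its ratio was nearer to 1 by more than counting error. The log2 difference of -0.63 was just past the 1.5-fold size. With the median of the genes above the density floor (7.30 RPKM, the median of the listed genes' mean densities) set to 0 it was -0.55, and with the authors' own scaling -0.57, both short of that size.

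Gadd45a, Plk2 and Rrm2b went the other way, each by less than 1.5-fold. Plk2 (ENSMUSG00000021701, chromosome 13, 110395044 to 110400844, plus strand) was at 17.7 RPKM in WT against 22.5 in KO, a ratio of 1.27 (1.22 to 1.32), and its log2 difference of 0.33 was above that of 94.6% of listed genes. Gadd45a (ENSMUSG00000036390, chromosome 6, 67035096 to 67037457, minus strand) was at 7.57 RPKM in WT against 8.42 in KO, a ratio of 1.11 (1.03 to 1.20). The opposite-strand gene E230016M11Rik overlaps it. In the authors' deposited table the corrected p-values, which compare the 2 libraries and not the genotypes, were 2.85e-31 for Plk2 and 0.0312 for Gadd45a.

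Rrm2b (ENSMUSG00000022292, chromosome 15, 37923952 to 37961318, minus strand) was the least abundant, at 1.56 RPKM in WT against 1.94 in KO, and the only one of the 7 below the density floor. The ratio was 1.25 (1.14 to 1.36), on an estimated 915 and 1070 reads. Its value is uncertain because the same-strand processed pseudogene Gm3362, at 22.8 RPKM in WT against 25.5 in KO, lies within it (37943327 to 37943792), and how reads in both were assigned is not given; Gm49085 overlaps it on the opposite strand. Less the 0.21 median of genes of like GC content and length, its log2 difference of 0.20 became -0.0074, level with them. The correction used here adds back the median of genes over the floor, -0.072, and so gave -0.079.

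Gtse1 (ENSMUSG00000022385, chromosome 15, 85859707 to 85876572, plus strand) differed least, at 16.4 RPKM in WT against 15.1 in KO. The ratio was 0.918 (0.877 to 0.960), and the log2 difference of -0.12 was close to the median of all listed genes. In the authors' deposited table its corrected p-value was 0.000953 and its signed fold change -1.05, lower in KO. The messenger RNA of Gtse1, whose product opposes p53, was thus nearly level between the libraries.

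**Figure D1:**
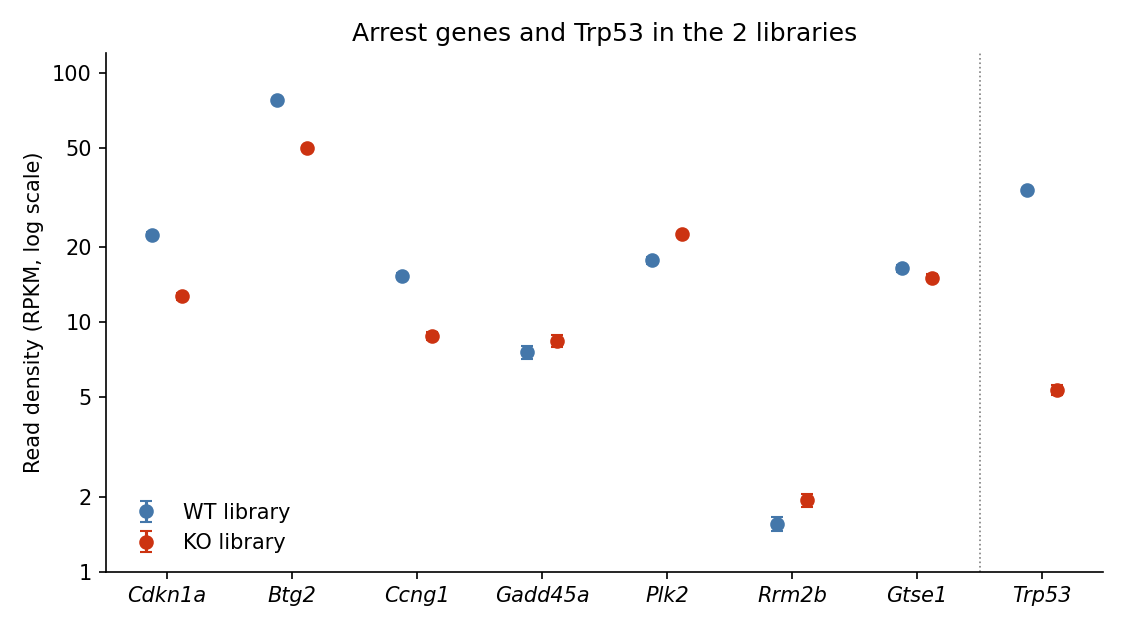
Read density (RPKM, log axis) of the 7 arrest genes and Trp53 in the WT library (blue) and the KO library (red), 1 library each; bars are exact 95% intervals for counting error. Cdkn1a, Btg2 and Ccng1 are lower in KO, as Trp53 is, while Plk2, Gadd45a and Rrm2b are higher in KO.

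In all, 4 of the 7 genes were lower in KO, where 63.9% of listed genes were, and 3 were higher, where 36.1% of listed genes were. The count of lower genes is therefore near the background. At least 1.5-fold lower were 3 of the 7, against 5.49% of listed genes, and at least 1.5-fold higher 0 of the 7, against 0.951%. These shares of listed genes were 13% and 2.36% with a pseudocount of 0.25, and 1.7% and 0.301% with one of 4, while the counts of 3 and 0 were the same. The median of the 7 differences was -0.12, beside -0.11 over all listed genes. It was -0.045 when centred on the median of genes above the floor, and -0.37 over the 6 arrest genes above the floor, beside -0.072 for all genes there, so it depends on which genes enter. Singly, Cdkn1a, Ccng1 and Btg2 lie between -0.77 and -0.63, and the other 4 between -0.12 and 0.33. Since the genes were chosen with earlier results of these data known, these counts are a description.

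**Figure D2:**
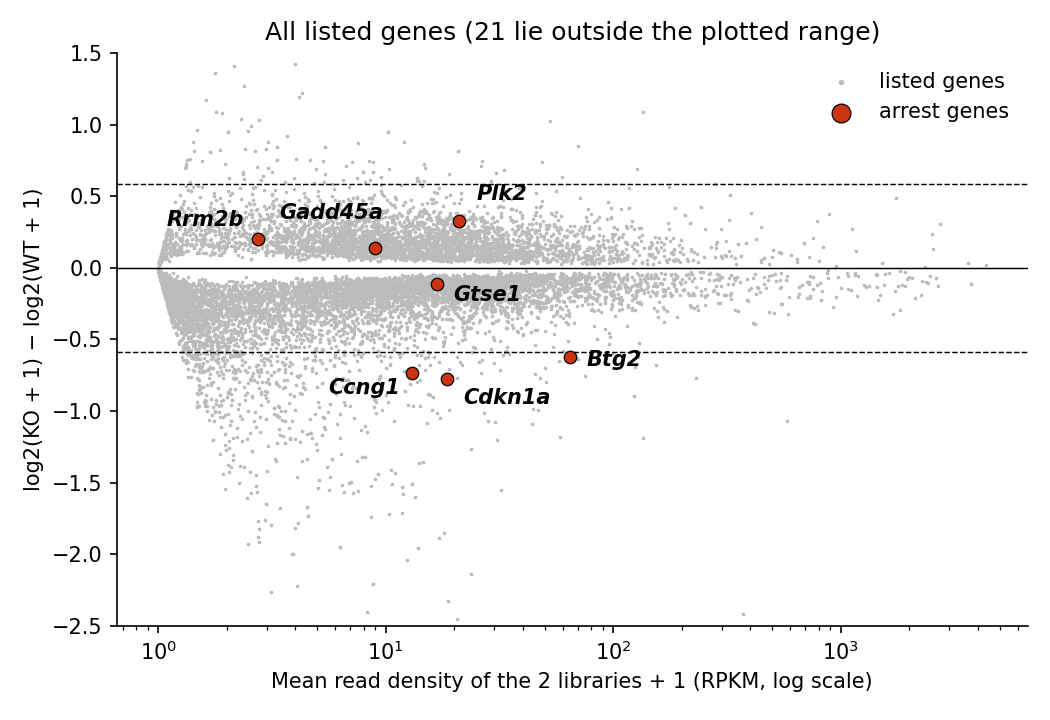
Log2 difference of KO minus WT against mean read density + 1 (log axis) for all listed genes (grey) and the 7 arrest genes (red); dashed lines mark 1.5-fold, and 21 genes lie outside the plotted range. The empty band around 0 is where genes that missed the authors' p-value limit would lie, and Cdkn1a, Ccng1 and Btg2 sit below the lower dashed line.

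The order of the levels changed between the libraries. In WT it ran Btg2, Cdkn1a, Plk2, Gtse1, Ccng1, Gadd45a and Rrm2b, and no neighbours in that order had overlapping counting intervals. In KO, Cdkn1a stood behind Btg2, Plk2 and Gtse1 (15.1 RPKM, 14.6 to 15.6), and Ccng1 (8.79 RPKM, 8.46 to 9.13) overlapped Gadd45a (8.42 RPKM, 7.96 to 8.89). These levels depend on the gene length that the authors divided by, which is not given. The deposited p-values imply 1763 bases for Gadd45a and 2724 for Gtse1, near the 1764 and 2742 of gene models that join all annotated exons, but 2801 for Plk2 and 6436 for Rrm2b, where those models have 4491 and 9134. For Cdkn1a, whose joined model has 3553 bases and whose longest coding transcript has 2080, the length could not be read back, so its place in the order and its estimated reads are uncertain. The ratio of KO to WT does not depend on the length.

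The libraries also differed with base composition. GC content and the log2 difference had a Spearman's rho of -0.52 over 5263 genes above the floor, where genes are not independent replicates. With these genes in 10 equal bins by GC, the median difference was 0.19 in the lowest bin and -0.15 in the highest. Ccng1, with 40.8% GC, went against this: genes of like GC and length had a median of 0.19, against its -0.73. Rrm2b, with 39.4% GC, had a difference of 0.20 where such genes had a median of 0.21, and Gtse1, with 54.3%, one of -0.12 where they had -0.13. Cdkn1a, with 54.4% GC, lay far below the same median of -0.13. Plk2 (48.0% GC, 0.33 against 0.080) and Gadd45a (49.8% GC, 0.14 against -0.13) lay above theirs, and Btg2 (49.7% GC, -0.63 against -0.081) below.

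**Figure D3:**
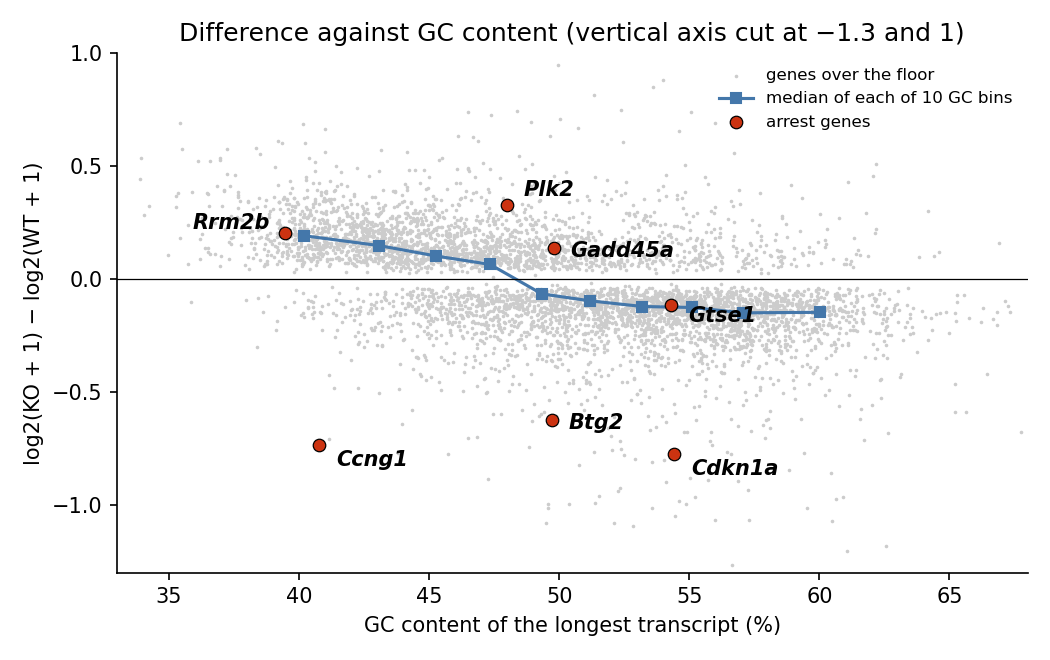
Log2 difference of KO minus WT against the GC content of the longest transcript (%), for genes over the density floor (grey), the median of each of 10 equal bins by GC (blue squares) and the 7 arrest genes (red). Gtse1 and Rrm2b lie on the line of medians, and Cdkn1a, Btg2 and Ccng1 lie well below it.

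**Figure D4:**
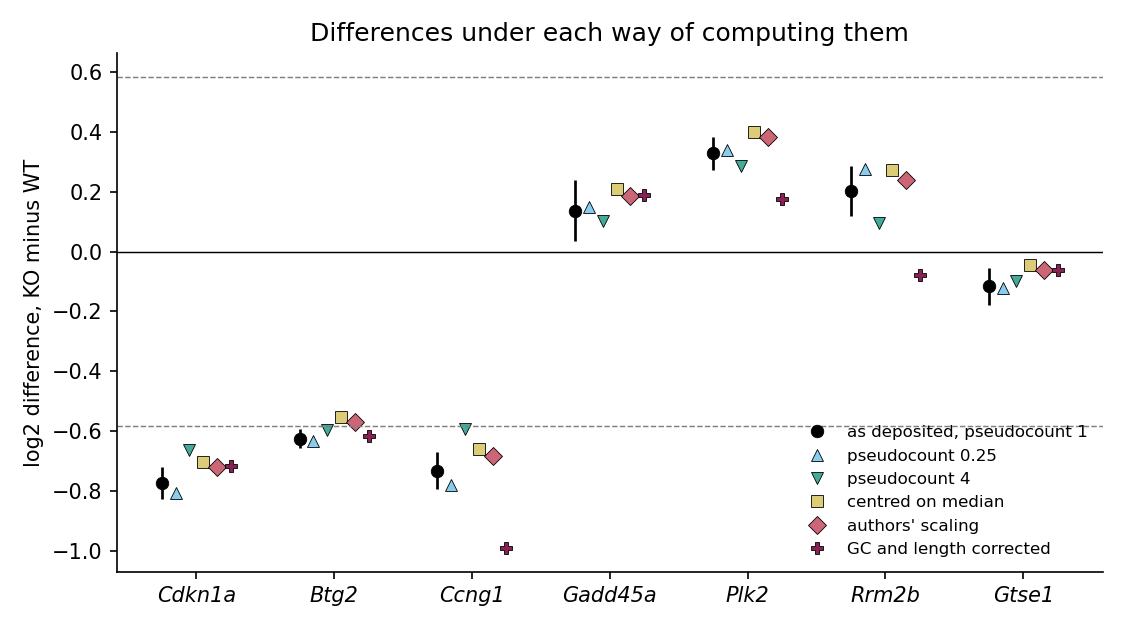
Log2 difference of KO minus WT for each arrest gene as deposited (black, with the counting interval) and under 5 other ways of computing it; dashed lines mark 1.5-fold. Btg2 lies near the lower line and crosses it with 2 of the other scalings. Rrm2b falls to -0.079 once GC content and length are corrected for, where a gene level with like genes lies at -0.072.

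Most other p53 targets in the table were lower. Of 44 listed, a list drawn up with earlier results of these data known, 30 were in the table, 28 being lower, where 63.9% of listed genes were. At least 1.5-fold lower were 6, against 5.49%, and at least 1.5-fold higher 0, against 0.951%. The median difference was -0.31 over the 30, and -0.21 over the 14 above the density floor. Phlda3, whose product blocks Akt signalling, measured 79.8 RPKM in WT against 34.6 in KO. Bbc3, which encodes the cell death protein PUMA, was at 14.5 and 10.2 RPKM, and Ak1, an adenylate kinase, at 13.1 and 8.37. Among those known for arrest, named after their values were seen, Rprm was at 2.76 RPKM in WT against 1.27 in KO, Sfn at 1.40 and 0.83, and Ptprv at 0.72 and 0.20. E2f7 was at 3.62 and 3.96 RPKM. Rprm, Sfn, Ptprv and E2f7 all lie below the density floor of 7.30 RPKM.

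Genes of the arrest machinery itself were divided in direction. Of 12 cyclins, CDKs and PCNA in the table, 6 were lower, where 63.9% of listed genes were, and 6 higher, with a median of -0.012. None of the 12 was past 1.5-fold, where 5.49% of listed genes were lower and 0.951% higher by that much, so a count of 0 is near the background. Ccnb1, the mitotic cyclin B1, was at 12.97 RPKM in WT against 17.3 in KO, while the G1 cyclins Ccnd2 (51.9 and 38.1) and Ccnd3 (106 and 90.9) were lower. With GC content and length corrected for, Ccnd2 was at -0.60. It is past 1.5-fold only through the -0.072 that the correction adds back, and short of it against like genes. Of 17 genes of the G2 and M phases, the phases in which Gtse1 is expressed, 9 were lower and 8 higher, beside the same 63.9%. Past 1.5-fold on the log2(density + 1) scale were 0 of the 17. With GC content and length corrected for, 8 of the 12 and 13 of the 17 were lower, where 77.2% of listed genes were. The G2 and M median was -0.088 before that correction, beside the Gtse1 difference of -0.12. Cdca3, a mitotic entry factor, was at 39.6 and 26.1 RPKM, a log2 difference of -0.58 that just misses that size, and would pass it without the pseudocount. Cks2, a CDK subunit, was at 31.1 and 41.4 RPKM, and Anln, the cytokinesis protein anillin, at 12.1 and 14.3. Of 13 E2F and S phase genes 6 were lower and 7 higher, where 63.9% of listed genes were lower. Once corrected, 10 of the 13 were lower, near the 77.2% of listed genes. Their median before the correction was 0.069, and -0.038 over the 11 above the density floor. The largest difference over the floor was that of Tk1, thymidine kinase (9.40 and 7.59 RPKM).

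Among the inhibitors of CDKs other than p21, Cdkn1c (p57) was at 291 RPKM in WT against 170.4 in KO, a log2 difference of -0.77 like that of Cdkn1a. Cdkn1b (p27) was at 11.8 and 13.3 RPKM, and Cdkn2d at 27.9 and 25.5. The correction took the Cdkn1b difference of 0.16 to -0.071, level with genes of like GC content and length. Of the 5 that were in the table, 4 were lower, where 63.9% of listed genes were, and 1 of them by at least 1.5-fold, against 5.49%. Of 9 genes for the supply of deoxynucleotides, the pathway of Rrm2b, 5 were lower, where 63.9% of listed genes were, and 4 higher. With the correction 7 were lower and 2 higher, where 77.2% of listed genes were lower. Cmpk1, at 13.8 and 18.03 RPKM, and Dck, at 21.2 and 25.2, were higher in KO, while Tk1 was lower (9.40 and 7.59 RPKM). Of 11 regulators of p53, 9 were higher and 2 lower, where 36.1% of listed genes were higher. With the correction 5 were higher and 6 lower, where 77.2% of listed genes were lower. Trp53 itself was lower, and among the higher were the kinase Hipk2 (11.4 and 14.1 RPKM) and the acetyltransferase Ep300 (16.7 and 19.5 RPKM).

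Relatives of the arrest genes were mostly higher in KO on the deposited densities, and mostly below 0 once GC content and length were corrected for. On the corrected scale a gene level with those of like GC content and length lies at -0.072 and not at 0. Of 13 listed, 7 were in the table, 6 being higher, against 36.1% of listed genes, and the median was 0.15. With the correction 5 of the 7 were lower, near the 77.2% of listed genes. The corrected median was -0.037, above the -0.11 of all listed genes. Ccng2, the relative of Ccng1, was at 18.2 RPKM in WT against 20.9 in KO. Of the family of Btg2, Btg1 was at 65.6 and 73.0 RPKM, Tob1 at 42.9 and 48.4 and Tob2 at 23.0 and 25.2, while Btg3 was low in both, at 1.10 and 0.674. Plk4 was at 8.57 and 10.2 RPKM, and Rrm2, the replication-linked relative of Rrm2b, at 55.3 and 59.5 RPKM, so Rrm2 exceeded Rrm2b per length in both libraries.

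**Figure D5:**
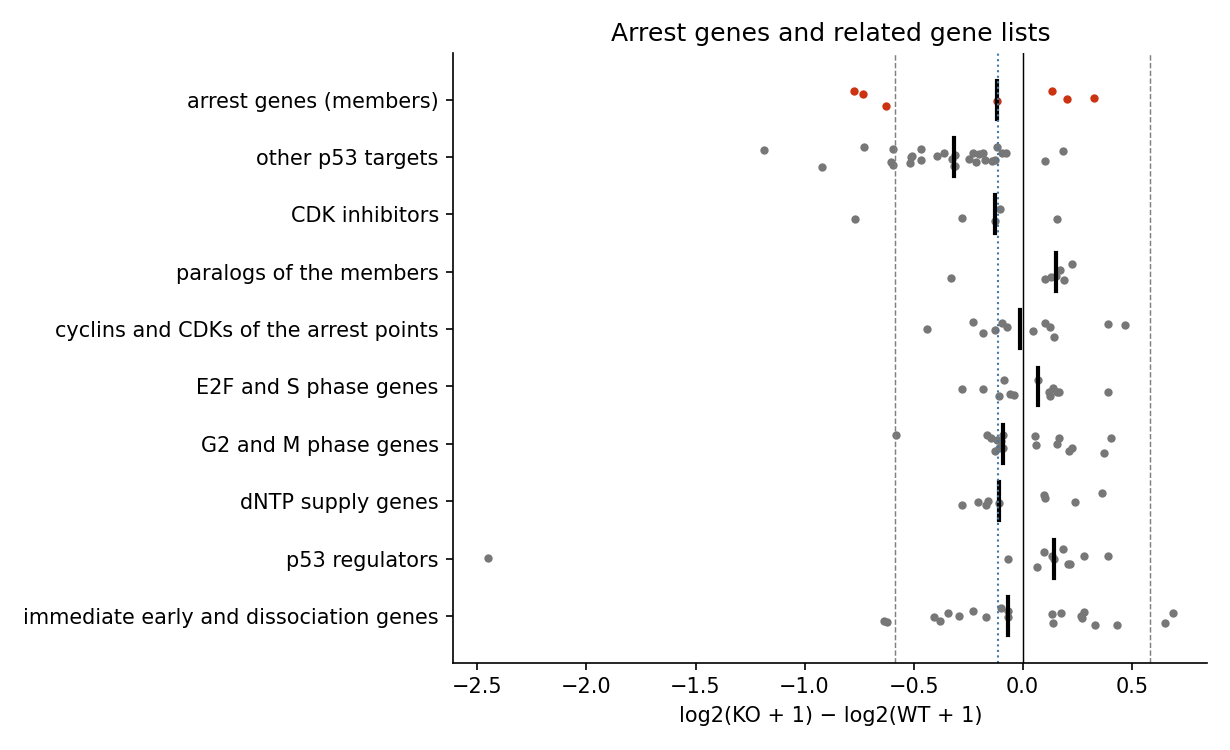
Log2 difference of KO minus WT for the 7 arrest genes (red) and the genes of 9 related lists (grey); each point is a gene, black bars are medians, the dotted line is the median of all listed genes and dashed lines mark 1.5-fold. The other p53 targets lie mostly left of 0, and the arrest genes fall into a low group and a group around 0.

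Btg2, Gadd45a and Plk2 are also induced early by stress and growth signals, apart from p53. Of 21 immediate early and dissociation genes in the table, 11 were lower, where 63.9% of listed genes were, and 10 higher. In each direction 2 were past 1.5-fold, against 5.49% of listed genes lower and 0.951% higher by that much. Fosb was at 96.3 RPKM in WT against 156 in KO and Klf4 at 13.8 and 22.3, while Zfp36 was at 84.3 and 53.9. The part of this response in the differences of Btg2, Gadd45a and Plk2 was not tested.

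Markers of nephron progenitors were present in both libraries, with 14 of 16 in the table summing to 1232 RPKM in WT against 1279 in KO. Of these 14, 8 were lower and 6 higher, with a median difference of -0.087, where 63.9% of listed genes were lower. Cited1 (-0.53), Hoxc11 (-0.50) and Osr1 (-0.38) differed most. Markers of other cells were lower in KO. All 13 of the stromal markers used here were lower, with sums of 303 and 138 RPKM, as were all 9 erythroid markers in the table (632 and 23.6). So were all 9 leukocyte markers (16.1 and 2.55), all 11 endothelial markers (19.3 and 7.53) and all 10 ureteric bud markers (30.1 and 14.8). Above the density floor were 8 of the stromal, 4 of the erythroid and 1 of the endothelial markers, and 0 of the leukocyte and ureteric bud markers. Of 14 early nephron, podocyte and tubule markers 11 were lower, 9 by at least 1.5-fold, against 5.49% of listed genes, with a median of -0.82. Their sums, 273 and 232 RPKM, consist mostly of Ccnd1, which was higher in KO (159 and 174). One erythroid marker was listed at 0 in KO, and none of the others in either library. The part of these cells in the differences of Cdkn1a, Btg2 and Ccng1 was not tested, and in bulk RNA fewer cells of a type and less RNA per cell cannot be told apart.

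The gene nearest to each arrest gene in the pair of log2(density + 1) values was found by Euclidean distance over the 2 libraries. For Cdkn1a it was Morf4l1, at 22.5 RPKM in WT against 13.4 in KO, and for Btg2 the stromal marker Tcf21, at 79.5 and 51.9. For Ccng1 it was Osr2, an early nephron gene, at 15.3 and 8.27. Lats1, a kinase of the Hippo pathway, was nearest to Plk2 (17.7 and 22.7 RPKM), Cntrob to Gadd45a (7.56 and 8.43), Ell2 to Rrm2b (1.58 and 1.95) and the proteasome gene Psma7 to Gtse1 (16.4 and 15.2). With only 2 libraries, likeness here means like levels and no more.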

How the data were processed

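Messenger RNA of sorted nephron progenitors was sequenced in 1 WT and 1 KO library. Per the submitters' processing notes, CASAVA 1.8, Novoalign 2.08.02 and FastQC were named, with builds GRCm38 and mm10; how reads were counted is not given. The table has, per the file headers, the authors' read density per library, taken here as RPKM from the values, a p-value, a corrected p-value, a fold ratio and a signed fold change, which is a score below 0 for genes lower in KO. The authors' fold ratio is the larger over the smaller density, in either direction, after KO is multiplied by 1.04. The largest corrected p-value is 0.0499827, so genes that missed it are not analysed here.

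The 10627 rows hold 10617 symbols; the row with the highest mean density stood for each of the 8 repeated symbols. Depths were inferred from genes at 0 in 1 library, whose fold ratios are whole multiples of a step (149 of 170 and 70 of 75 genes, within 0.01 read); 99 of 148 and 48 of 67 with a GENCODE vM21 gene model gave 1 depth within 0.5%. The authors' deposited p-value behaves as a two-sided binomial comparison of reads: the gene length it implies was within 5% of the gene model for 61.0% of 8291 genes. Reads came from that p-value for Gadd45a, Plk2, Rrm2b and Gtse1, and from gene model length for Cdkn1a, Btg2 and Ccng1, whose deposited p-value is 0. Read estimates and intervals are therefore approximate, and they cover counting error only.

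The measure was log2(KO + 1) minus log2(WT + 1), so low densities understate folds. No test was made, and 1.5-fold was the size rule. The GC and length correction subtracted the median of genes over the floor in the same of 10 GC and 4 length bins and added back their overall median. Python 3.11.15, scipy 1.17.1 and pandas 2.3.3 were used, and the scripts were tested on simulated data. Named genes were the 7 arrest genes, Trp53, up to 3 genes with the largest difference over the floor from each list, all paralogs in the table and the nearest gene to each. Rprm, Sfn, Ptprv, E2f7 and Ccnd1 fall outside that rule and were named after their values were seen. The members and lists were chosen with earlier results of these data known.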

Additional observations from a re-analysis of the deposited data

How the results depend on the processing

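Of 35 values of the 7 arrest genes under 5 alternatives each, 34 kept their sign, 21 of them within the counting interval. Rrm2b was the exception, at -0.079 with GC content and length corrected for. Before the median of genes over the floor was added back it was -0.0074, level with like genes. The count of genes lower in KO was 4, or 5 with that correction, where 77.2% of listed genes were lower. The count at least 1.5-fold lower was 3, or 2 (without Btg2) when centred on the median or with the authors' scaling. Beside these counts stand 5.49%, 4.3% and 4.96% of listed genes, in that order. Under a 2-fold rule the count was 0, and the share of listed genes was not computed. The median difference of -0.12 was -0.045 when centred and -0.37 over the 6 genes above the floor. Pseudocounts of 0.25 and 4 took Cdkn1a to -0.81 and -0.66, and Ccng1 to -0.78 and -0.59; the GC and length correction took Ccng1 to -0.99, Cdkn1a to -0.72 and Plk2 to 0.18. No paired analysis was possible because each group has 1 library. Depth limits little here, since the least covered gene, Rrm2b, has an estimated 915 reads in WT; the lack of replicates limits every value.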
